A study of Mus musculus with 12 samples.

Results

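The comparison covers reprogrammed mammary against reprogrammed lung epithelial cells of the mouse, on 6 of the 12 microRNA arrays of the study. Its members were taken by title: reprogrammed mammary replicates 1, 2 and 4 and reprogrammed lung replicates 1, 2 and 3, with 1 sample on each array. The other 6 arrays held adult lung and adult mammary epithelial cells, 3 of each. They gave the adult difference set beside the reprogrammed one, and they also entered the scaling, the detection filter and the shared estimate of spread in the test. Adult donor cells were taken from lungs and mammary glands of female mice aged 10 weeks, dissociated with trypsin and collagenase, enriched for epithelium by repeated centrifugation, and prepared in Matrigel for transplantation, per the labels' protocols. The same protocols also describe embryonic lung epithelium and do not tie it to an array. The series title places the reprogramming in vivo and makes it dependent on stroma. The labels name no genotype, strain, transgene or added agent for the reprogrammed groups. They do not say whether "reprogrammed lung" names the organ the cells came from or the fate they took, what the host tissue was, or how the cells were recovered from it. The groups are therefore called by their labels only.

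MicroRNAs are short RNAs that guide Argonaute proteins to messenger RNAs, mostly through pairing of the seed near the 5′ end, and lower the translation or stability of those targets. Epithelial cells of different organs carry different microRNA profiles, and members transcribed from 1 cluster or related by sequence often share their level pattern. On these arrays the probes carry only a serial number of the array design (UCSF034 followed by 6 digits). The files and tables used here do not pair it with a microRNA, so 0 members of the microRNA lists and cell type markers could be matched. The labelled tissue could not be checked against its markers, no sequence is shown, and results are given by probe.

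Each array held 15075 spots for 2579 probes besides its controls. The level used below is the log2 processed signal after division by the array's brightness, the 75th percentile over the 630 probes detected on all 12 arrays, and return to a common scale. A probe was called detected where most of its spots were well above background. Array brightness before scaling was 1653, 1271 and 1632 on reprogrammed lung replicates 1 to 3, and 844, 863 and 805 on reprogrammed mammary replicates 1, 2 and 4. The groups did not overlap, and the ratio of the means was 1.81 (lung 1519 ± 215, mammary 837 ± 29.3; SD, n = 3). On the slides taken singly it was 2.03, 1.47 and 1.96. Detected probes numbered 906, 875 and 882 in lung against 725, 773 and 700 in mammary cells, again without overlap. Control spots differed in the same direction: the DCP_22 control gave a ratio of lung to mammary of 1.80 and the bright corner control one of 1.25, the latter with overlapping groups. DCP_22 was dim, with means of 34.6 in lung and 19.2 in mammary, against 10037 and 8006 for the bright corner. An exact permutation test of 3 arrays against 3 cannot give a two-sided p below 0.1, so none is given for these values. Whether replicates are separate animals or cultures cannot be read from the labels; the p-values below rest on array-to-array spread alone, which may be technical.

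**Figure D1:**
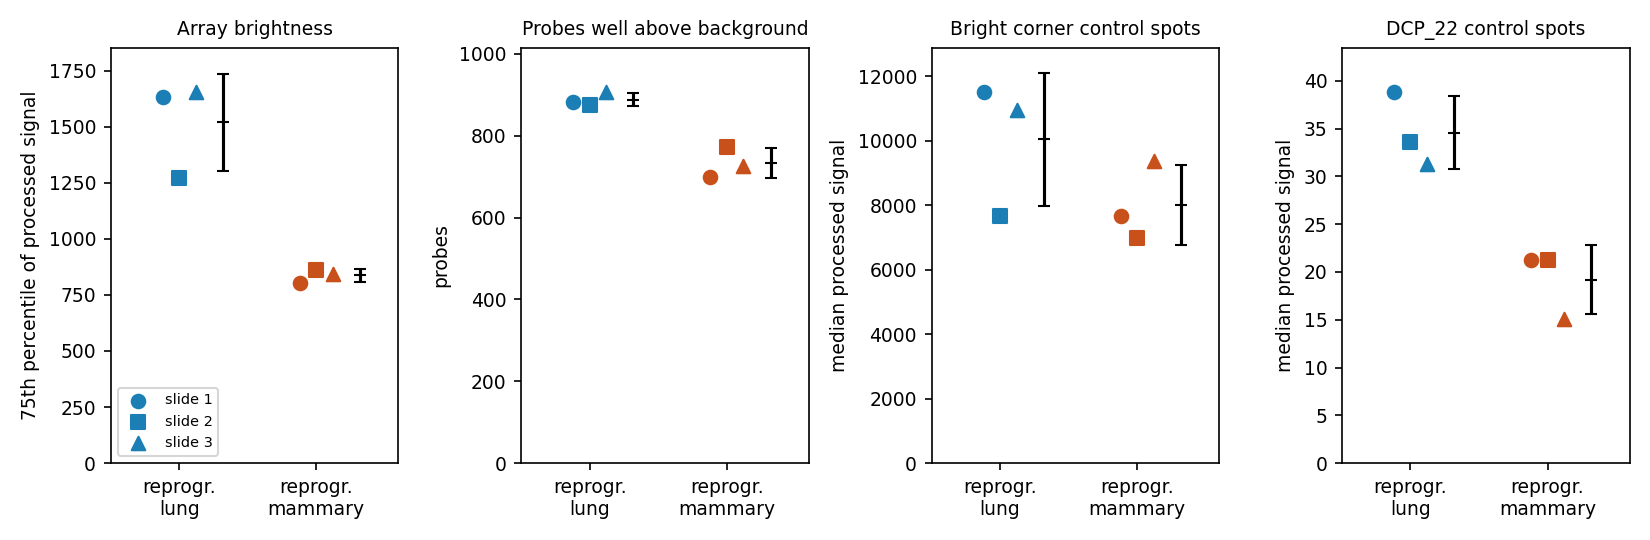
Array brightness, number of detected probes and medians of 2 kinds of control spot (linear processed signal) on the 6 reprogrammed arrays, 1 point per array, with the mean and SD of each group beside the points. The 3 reprogrammed lung arrays lie above the 3 reprogrammed mammary arrays in brightness (1271 to 1653 against 805 to 863), detected probes (875 to 906 against 700 to 773) and DCP_22 signal, while bright corner signals overlap.

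Few single probes passed the test between the reprogrammed groups. Of 947 probes detected on at least 3 of the 12 arrays, 2 passed an adjusted p of 0.05 in limma with Benjamini-Hochberg adjustment, which is 0.211% of those tested. In mammary cells the probe UCSF034_002505 was higher and the probe UCSF034_001350 lower. At an unadjusted p under 0.05 there were 183 probes, 87 higher and 96 lower. In 191 probes, 20.2% of those tested, all 3 arrays of one group lay above all 3 of the other, 96 higher and 95 lower in mammary cells. The median change was -0.00037 and the median size of a change 0.30 on the log2 scale. There were 60 changes of more than 1 in size, 25 higher and 35 lower, and of these 60 UCSF034_002505 passed the threshold and the other 59 did not. With a median SE of 0.26, the unadjusted 95% interval lay within a 2-fold change in either direction for 516 probes and reached or passed it for the rest. The low count of calls does not show that those probes were alike. Leaving out reprogrammed mammary replicate 1 left 0 probes called (118 at an unadjusted p under 0.05), while leaving out lung replicate 1, lung replicate 3 or mammary replicate 4 gave 8, 16 and 12. Leaving out any of the other 8 arrays gave 1 to 3. With slide as a fixed block 0 probes passed, and 176 had an unadjusted p under 0.05. That fit had 6 residual degrees of freedom in place of 8. With slide as a random block the same 2 probes passed.

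UCSF034_002505 had log2 levels of 3.85, 4.00 and 3.86 in reprogrammed lung against 5.19, 5.03 and 4.90 in reprogrammed mammary cells. All 3 mammary arrays lay above all 3 lung arrays, and the probe was detected on all 6. The change was 1.14 ± 0.13 (limma SE, n = 3 per group; adjusted p = 0.00729), which is 2.20-fold with a 95% interval of 0.85 to 1.43 on the log2 scale. On the 3 slides it was 1.04, 1.03 and 1.35. In adult cells the probe lay at 3.42, 3.42 and 3.43 in lung and at 3.96, 3.62 and 3.53 in mammary, at or near the floor of 3.42 set for all arrays. The call was lost with slide as a fixed block (adjusted p = 0.0732), with the 6 reprogrammed arrays fitted alone (adjusted p = 0.142) and without reprogrammed mammary replicate 1 (adjusted p = 0.0504). With no scaling of the arrays the change was 0.28 (limma adjusted p = 0.309). In the authors' values it was 0.49 (adjusted p = 0.0632), and with the percentile over all probes 1.21 (adjusted p = 0.0556). The floor at the 20th percentile gave 0.76, where the call was kept. In all, the probe fell short of the threshold in 7 of 31 other settings, and the size of its change differed with the processing. The neighbouring serial numbers UCSF034_002504 and UCSF034_002506 had changes of 0.05 and -0.29, and in both the groups overlapped.

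UCSF034_001350 lay at 4.02, 4.07 and 3.90 in reprogrammed lung and at 3.42, 3.46 and 3.51 in reprogrammed mammary cells, where none of the 3 arrays detected it. The fitted change was -0.53 ± 0.08 (limma, adjusted p = 0.0379; n = 3 per group). Since the mammary level is a limit, the ratio of group means was bounded at 1.03-fold in favour of lung cells, without allowance for array spread. All 6 adult arrays were at 3.42 or 3.43. The probe fell short of the threshold in 19 of 30 other settings, among them slide as a fixed block (adjusted p = 0.0934), and with normexp background correction the change turned to 0.58 where the median over all probes was 0.48. The lower brightness of the reprogrammed mammary arrays moves with this result, and its part was not tested.

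Among the 659 probes detected on all 6 reprogrammed arrays, 130 had groups that did not overlap, 73 higher and 57 lower in mammary cells, a share of 19.7% that is near the 20.2% over all tested probes. The 8 highest and 8 lowest of these are described next. Their separation and direction follow from how they were picked, and besides UCSF034_002505 none passed the adjusted threshold. Adjusted p-values were from 0.0571 to 0.221, where 16 probes share the value 0.0571.

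UCSF034_000873 was the high probe with the smallest adjusted p after UCSF034_002505. Its log2 levels were 8.59, 8.91 and 8.97 in reprogrammed lung against 10.23, 10.31 and 9.88 in reprogrammed mammary cells, and the groups were separated by more than the range of either. The change was 1.32 ± 0.23 (2.49-fold; limma adjusted p = 0.0571) and was 0.91, 1.41 and 1.63 on slides 1 to 3. Adult lung arrays lay between 10.53 and 10.61 and adult mammary arrays between 9.49 and 10.41, so the reprogrammed lung arrays were the low ones among the 12.

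UCSF034_000524 lay at 6.44, 8.10 and 9.33 in reprogrammed lung and at 10.11, 9.46 and 9.73 in reprogrammed mammary cells. UCSF034_000523 lay at 6.58, 8.26 and 9.49 in reprogrammed lung and at 10.28, 9.63 and 9.79 in reprogrammed mammary cells. The 3 mammary arrays were close together in both probes, while the lung arrays spread over more than 2 log2 units with replicate 1 lowest and replicate 3 close to the mammary level. The changes were 1.81 ± 0.58 and 1.79 ± 0.58 (limma adjusted p = 0.133 and 0.137). For UCSF034_000524 the change was 0.40, 1.36 and 3.67 on slides 1 to 3, and without reprogrammed lung replicate 1 it was 1.05 (adjusted p = 0.155). The next serial numbers, UCSF034_000525 and UCSF034_000526, had changes of 1.05 and 0.99 with overlapping groups.

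A run of 5 successive serial numbers, UCSF034_000132 to UCSF034_000136, was higher in each member by 0.80 to 1.31 and did not overlap in any. Each of these probes has 1 spot per array. Of the 16 probes with 1 spot and a mean level of 13 or more, 10 were higher without overlap, the run among them. UCSF034_000134 lay at 12.71, 13.77 and 13.65 in reprogrammed lung and at 14.90, 14.41 and 14.76 in reprogrammed mammary cells (1.31 ± 0.36, limma adjusted p = 0.0919). UCSF034_000133 lay at 14.24, 14.50 and 13.83 against 15.56, 14.97 and 15.54 (1.17 ± 0.26, adjusted p = 0.0601). After quantile normalization the changes of UCSF034_000134 and UCSF034_000133 were 1.00 and 0.54. With no scaling they were 0.46 and 0.32, where the median of all probes was -0.69. The highest adult array read 14.17 for UCSF034_000134 and 14.60 for UCSF034_000133, below the 3 reprogrammed mammary arrays of the same probe.

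UCSF034_001050 had a tight lung group (4.49, 4.45 and 4.30) and a wide mammary group (6.21, 6.68 and 4.71), with a change of 1.45 ± 0.58 (limma adjusted p = 0.221). UCSF034_000028, a probe with 5 spots, lay at 8.32, 7.97 and 8.52 against 9.45, 9.45 and 9.71, with a change of 1.27 ± 0.41 (adjusted p = 0.137). Over slides 1 to 3 the latter read 1.19, 1.48 and 1.13.

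**Figure D2:**
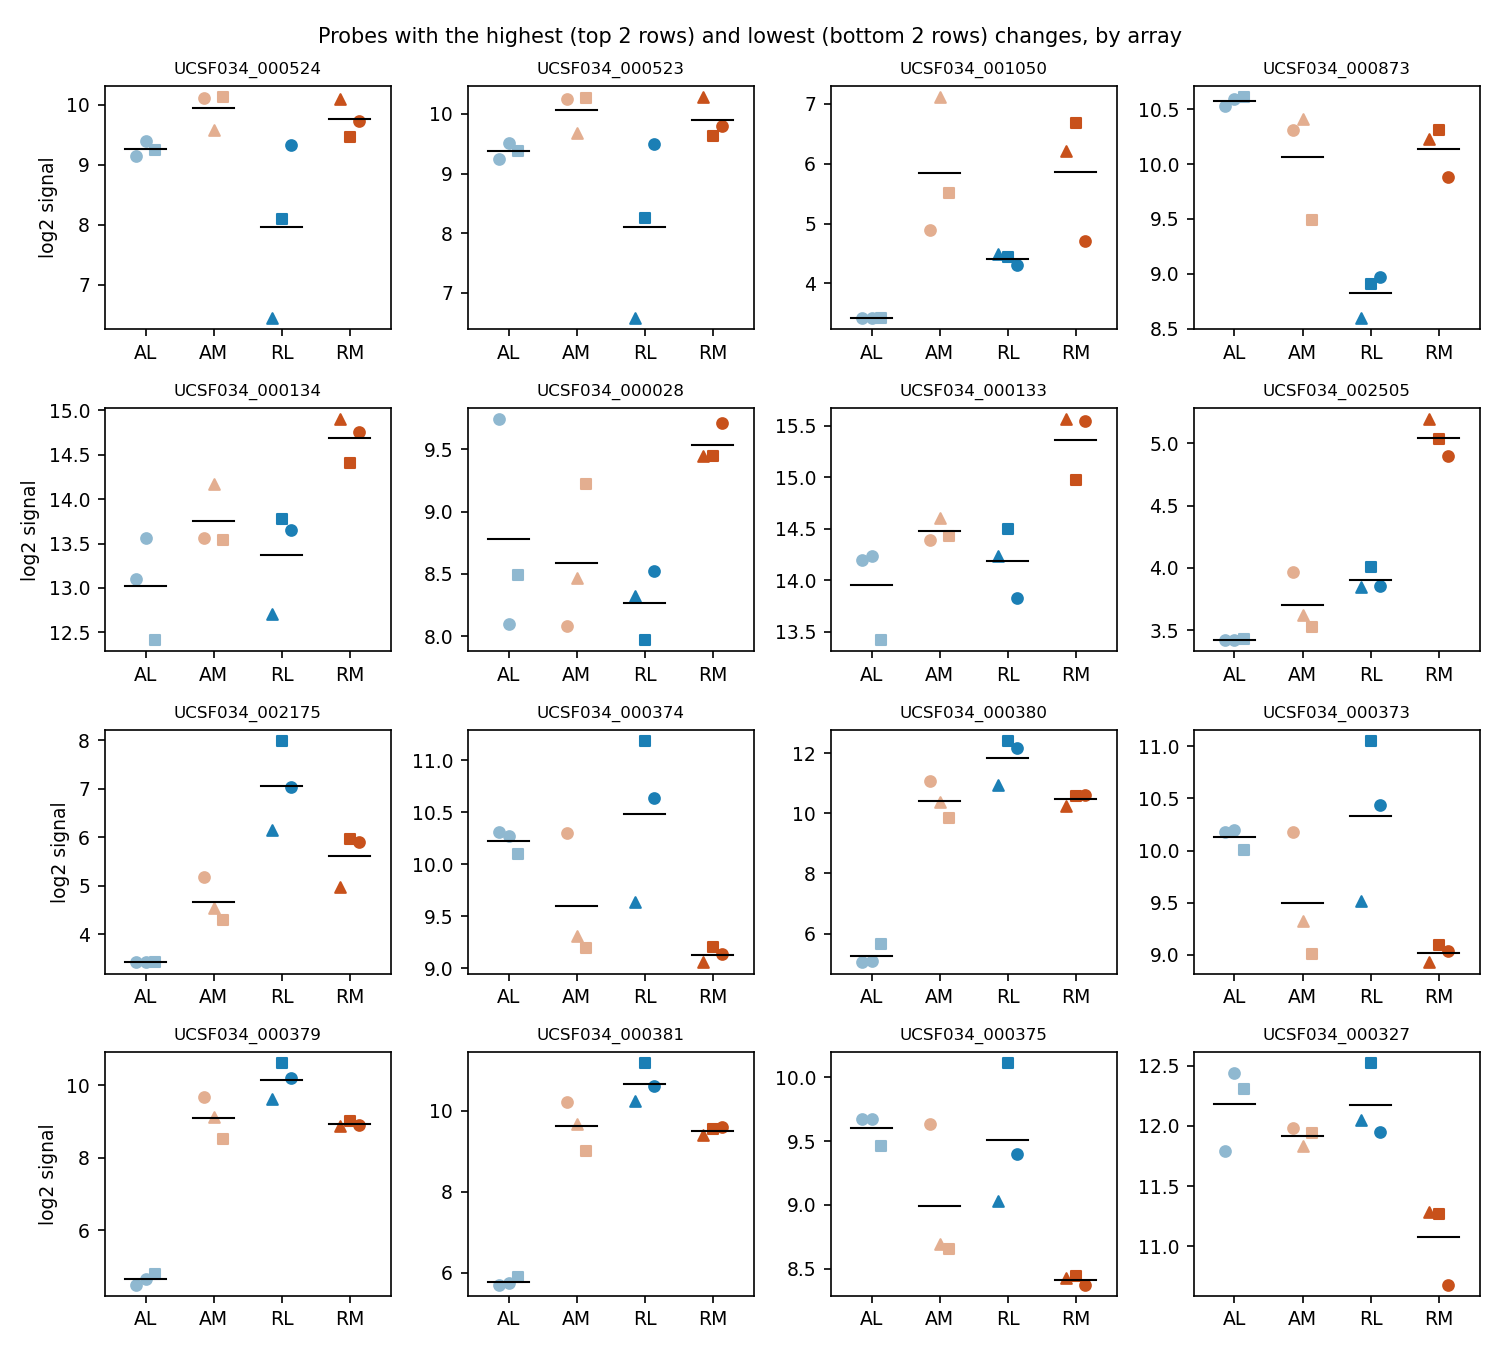
Log2 level by array for the 8 highest (top 2 rows) and 8 lowest (bottom 2 rows) probes among those detected on all 6 reprogrammed arrays with groups that do not overlap; AL and AM are adult lung and mammary, RL and RM reprogrammed lung and mammary, circles, squares and triangles mark slides 1, 2 and 3, and lines are group means. UCSF034_000524 shows the spread of the reprogrammed lung arrays (6.44 to 9.33) beside mammary arrays at 9.46 to 10.11, and each panel has its own vertical scale.

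The lowest changes came in 2 runs of neighbouring serial numbers and 2 single probes. UCSF034_000374 lay at 9.63, 11.18 and 10.64 in reprogrammed lung and at 9.05, 9.20 and 9.13 in reprogrammed mammary cells (-1.36 ± 0.38, limma adjusted p = 0.102). Its neighbours UCSF034_000373 and UCSF034_000375 had values of -1.32 ± 0.38 and -1.10 ± 0.31. In all 3 probes the mammary arrays spanned less than 0.2 log2 units and lung replicate 1 was the lowest of its group. Adult lung arrays lay between 9.46 and 10.32 in the 3 probes, and adult mammary arrays between 8.65 and 10.30.

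The second run held UCSF034_000379, UCSF034_000380 and UCSF034_000381. UCSF034_000380 lay at 10.92, 12.39 and 12.16 in reprogrammed lung and at 10.24, 10.57 and 10.60 in reprogrammed mammary cells, a change of -1.35 ± 0.41 (limma adjusted p = 0.126). The changes of UCSF034_000379 and UCSF034_000381 were -1.21 ± 0.30 and -1.17 ± 0.30 (adjusted p = 0.0789 and 0.0829). The dimmer UCSF034_000382, UCSF034_000383 and UCSF034_000384, next in the series, had changes of -0.72, -0.47 and -0.47, also without overlap, and were not well above background on any mammary array. UCSF034_000380 was at 5.04, 5.08 and 5.66 in adult lung and at 11.08, 10.36 and 9.83 in adult mammary cells, so 2 of the 3 reprogrammed lung arrays lay above every adult mammary array and replicate 1, at 10.92, lay within their range.

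UCSF034_002175 lay at 6.15, 7.98 and 7.03 in reprogrammed lung and at 4.98, 5.96 and 5.90 in reprogrammed mammary cells, the lowest of the 16 changes at -1.44 ± 0.44 (limma adjusted p = 0.126). It was at the floor of 3.42 on all 3 adult lung arrays. UCSF034_000327 lay at 12.05, 12.52 and 11.95 in reprogrammed lung and at 11.29, 11.27 and 10.68 in reprogrammed mammary cells (-1.10 ± 0.23, adjusted p = 0.0571). Its slide values were -1.27, -1.25 and -0.76, and adult cells of both organs lay with the reprogrammed lung arrays, between 11.79 and 12.44.

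Neighbouring serial numbers were compared beyond these runs. Among probes detected on all 6 arrays there were 365 pairs of successive numbers, with a median correlation over the 6 arrays of 0.789. The correlation was over 0.9 in 132 pairs (36.2%). Both probes of a pair share the 6 arrays and their scaling, so this describes the pairs only. The changes of the 2 probes differed by a median of 0.22, where the SD of the change over these probes was 0.54. The sources used here do not say what neighbouring numbers stand for, and probes in a run are not counted as independent findings.

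Detection differed in 1 direction. All 3 reprogrammed lung arrays and no reprogrammed mammary array detected 62 probes, and 0 probes showed the reverse. Of the 947 tested probes 228 were detected on more lung than mammary arrays and 12 on more mammary than lung arrays. These 62 probes were dim: their mean level in reprogrammed lung cells had a median of 3.79 and a maximum of 4.83, against a floor of 3.42. A bound above 1-fold could be given for 22 of them, and the highest was 1.83-fold. Among the 62, 26 were detected on all 3 adult lung arrays, 14 on all 3 adult mammary arrays and 6 on no adult array. Adult lung arrays were also brighter before scaling than adult mammary arrays (means 2493 and 1405). They detected more probes as well (means 912 and 811). Shares over all probes were not taken, so these adult counts are not read as a trait of the 62. The reprogrammed mammary arrays were dimmer by 1.81-fold before scaling, a difference that moves with the count of 62, and its part was not tested.

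UCSF034_000343 had the highest bound. It lay at 3.89, 5.77 and 4.83 in reprogrammed lung cells and at 3.42, 3.43 and 3.42 in mammary cells. The bound was 1.83-fold in favour of lung, with a limma adjusted p of 0.235. A bound compares group means and does not allow for array spread. The 95% interval of the fitted change of UCSF034_000343 ran from -2.74 to -0.08 on the log2 scale. UCSF034_000382, described above, had a bound of 1.42-fold in favour of lung. UCSF034_000234 lay at 4.38, 4.67 and 4.16 against 3.69, 3.42 and 3.70, with a bound of 1.36-fold in favour of lung (limma adjusted p = 0.0571). All 6 adult arrays read 4.56 to 4.89.

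UCSF034_002553 lay at 3.84, 4.56 and 4.65 in reprogrammed lung and at 3.44, 3.49 and 3.50 in reprogrammed mammary cells. It had a bound of 1.31-fold in favour of lung (limma adjusted p = 0.0571). Without reprogrammed lung replicate 1 its fitted change was -1.13 with an adjusted p of 0.000254, the lowest of 30 other settings. The probe fell short of the threshold in 24 of these settings and passed in 6, with limma adjusted p-values up to 0.261. Its mammary values lie near the floor of 3.42 and are limits. UCSF034_001153 had a bound of 1.32-fold, but its lung arrays, at 5.27, 4.36 and 3.45, overlapped the mammary arrays, at 3.55, 3.49 and 3.42. With normexp background correction the fitted changes of all 5 of these probes turned positive, at 0.25 to 0.52, around a median over all probes of 0.48.

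The brightest probes leaned towards reprogrammed mammary cells after percentile scaling. Of the 53 probes with a mean level of 13 or more, 48 had a positive change (90.6%, against 48.3% over all tested probes), 33 were higher on all 3 slides (62.3% against 21.2%), and 25 did not overlap (22 higher and 3 lower, 47.2%, against 20.2% over all tested probes). Their median change was 0.54, and it was 0.32, 0.23 and 0.75 on slides 1 to 3. Of them 26 had an unadjusted p under 0.05 in limma (49.1%, against 19.3% over all tested probes) and 0 passed the adjusted threshold, which 0.211% of all probes did. Without reprogrammed lung replicate 1 the median was 0.25. The 5 classes of lower level had medians between -0.08 and 0.07. The size of the lean differed with how arrays were brought to 1 scale. Relative to the median of all probes it was 0.59 with the percentile over all probes, 0.39 with no scaling and 0.13 with quantile normalization. In the authors' values, which hold 30 of the 53 probes, the median was 0.09. With normexp it was 0.48, close to the median of all probes, where the class under a level of 5 had a median of 0.66 and the classes from 7 to 13 had medians of -0.01 to 0.14. No scaling moved the median of all probes to -0.69 and normexp to 0.48.

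UCSF034_000018, the brightest of the probes, lay at 17.10, 17.15 and 16.93 in reprogrammed lung and at 17.87, 17.70 and 17.66 in reprogrammed mammary cells (0.68 ± 0.15, limma adjusted p = 0.0571), a change that was -0.17 with no scaling. UCSF034_002465 lay at 16.81, 17.01 and 17.01 against 17.48, 17.52 and 17.47 (0.54 ± 0.13, adjusted p = 0.0771), with -0.05 after quantile normalization and -0.30 with no scaling. UCSF034_001736 lay at 16.23, 16.07 and 16.15 against 16.78, 16.90 and 16.73 (0.65 ± 0.17, adjusted p = 0.0829), with -0.20 under no scaling. The mammary arrays were the 3 higher ones in each of these probes under percentile scaling.

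The other bright probes had overlapping groups. UCSF034_000117 lay at 15.62, 15.34 and 15.09 against 16.54, 16.79 and 15.50 (0.93 ± 0.30, limma adjusted p = 0.133). UCSF034_000750 lay at 14.99, 15.84 and 15.80 against 15.76, 15.60 and 16.10 (0.27 ± 0.28, adjusted p = 0.699), and its change was negative with no scaling (-0.58), after quantile normalization (-0.29) and in the authors' values (-0.25).

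**Figure D3:**
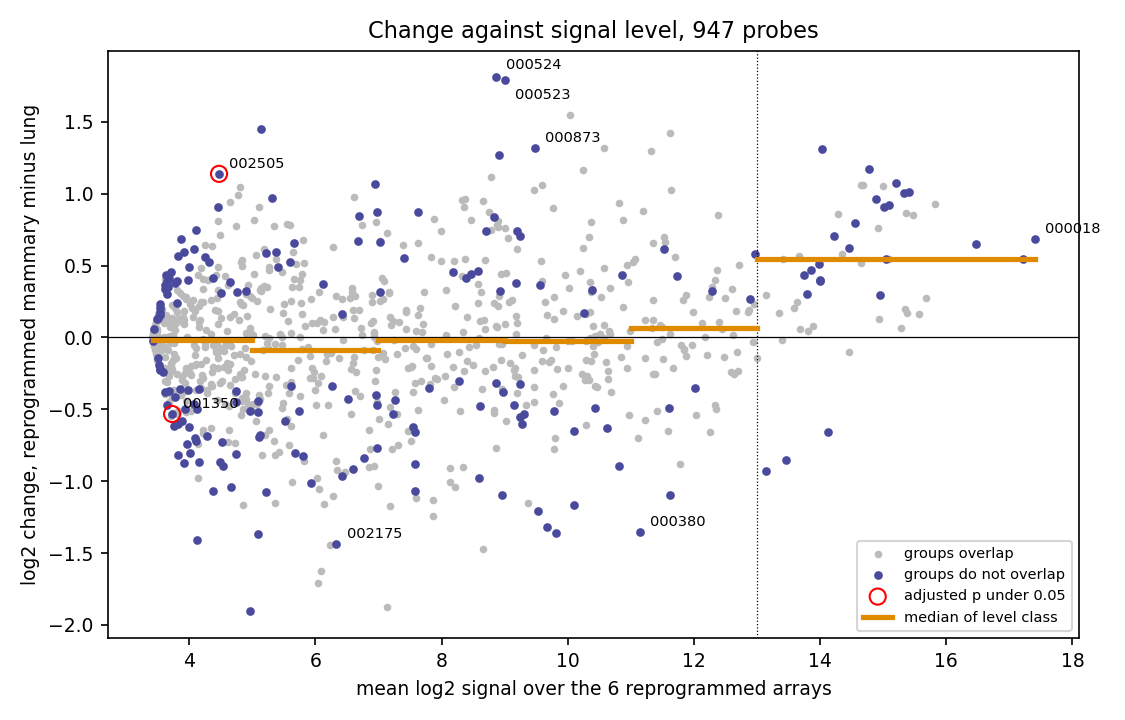
Change on the log2 scale (reprogrammed mammary minus reprogrammed lung) against the mean log2 level over the 6 reprogrammed arrays, for 947 probes; dark points have groups that do not overlap, red rings mark the 2 probes past the adjusted threshold, and orange bars are the medians of 6 level classes. The class at a level of 13 or more, right of the dotted line, has a median of 0.54, while the other classes lie between -0.08 and 0.07.

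The lean also differed by how often a probe was printed. The 36 probes with 5 spots per array had a median change of 0.27, with 14 higher and 0 lower without overlap (38.9%, against 20.2% over all tested probes). The 157 probes with 1 spot had a median of -0.27, with 10 higher and 26 lower (22.9%, near the share over all probes). The 383 probes with 6 spots and the 371 with 7 spots had medians of 0.00 and 0.06. Among the probes at a level of 13 or more, the 30 with 6 or 7 spots had a median of 0.35 and the 16 with 1 spot one of 0.66. The sources used here do not say what separates the printing classes, and probes with 1 spot lack the averaging of the others.

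Each of the 3 slides held 1 array of each reprogrammed group, so the change could be read within a slide. Slide 1 held lung replicate 3 and mammary replicate 4, slide 2 held both replicates numbered 2, and slide 3 both numbered 1. Of the 947 probes 390 (41.2%) had the same sign on all 3 slides, 201 higher and 189 lower. Changes on slides 1 and 2 correlated over probes at r = 0.38, slides 1 and 3 at 0.18, and slides 2 and 3 at 0.17, where probes share arrays and are not replicates. Slide 3 had the widest changes, with an SD over probes of 1.04 against 0.55 on slide 1 and 0.59 on slide 2. On slide 3, 94 probes were higher and 129 lower by more than 1, against 39 and 50 on slide 1 and 52 and 34 on slide 2.

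**Figure D4:**
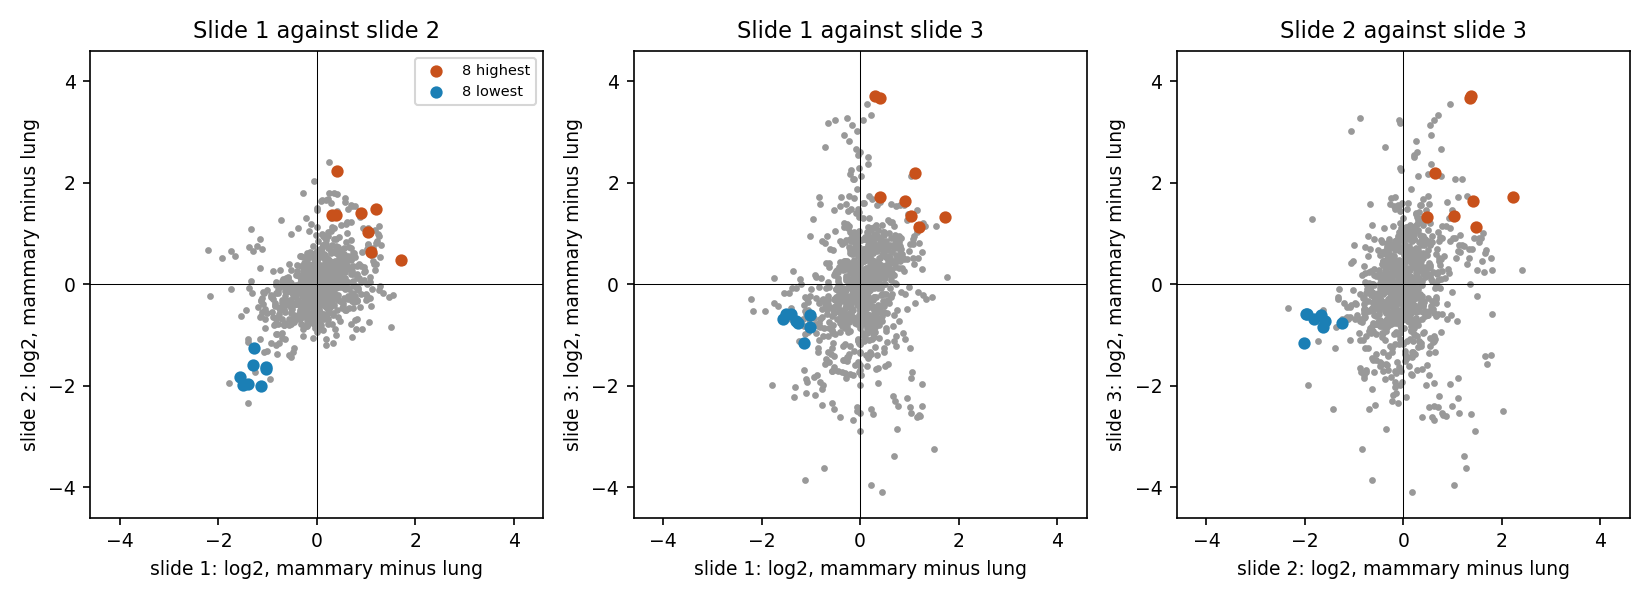
Log2 change (reprogrammed mammary minus reprogrammed lung) of 947 probes within each slide, plotted for the 3 pairs of slides, with the 8 highest and 8 lowest probes coloured. Slide 3 spreads more (SD 1.04) than slides 1 and 2 (0.55 and 0.59), and the coloured probes keep their sign on every slide because they were picked from groups that do not overlap.

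Slide 3 carries reprogrammed lung replicate 1, which stood apart. Over the 947 probes it correlated with reprogrammed lung replicates 2 and 3 at 0.965 and 0.929, while those correlated with each other at 0.982. Its correlation with the 3 reprogrammed mammary arrays was 0.922 to 0.967. This array lay in row 1 of its slide and the other reprogrammed arrays in row 2, and the part of that position was not tested. The closest pair across the groups was lung replicate 3 and mammary replicate 4, at 0.986, which share slide 1. Deviations of these 2 arrays from their group means also correlated over probes, at 0.63. For the pairs that share slide 2 and slide 3 that correlation was -0.01 and 0.12. Reprogrammed lung arrays had a median probe SD of 0.34 and reprogrammed mammary arrays one of 0.27, and the lung SD was the larger in 542 of 947 probes. The spread of the reprogrammed lung group therefore enters every comparison of single probes given here.

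The probes of widest spread mostly varied inside both groups. UCSF034_000748 read 13.07, 11.04 and 5.73 in lung against 8.99, 11.22 and 6.18 in mammary cells, with SDs of 3.79 and 2.52 and a change of -1.15 ± 2.09 (limma adjusted p = 0.83). UCSF034_000784 read 10.37, 8.09 and 5.75 in lung and 6.50, 7.45 and 4.63 in mammary cells. UCSF034_000761 read 10.86, 9.09 and 6.41 in lung and 6.91, 10.12 and 6.63 in mammary cells. In these 3 probes lung replicate 1 was the highest and lung replicate 3 the lowest of the lung arrays, and mammary replicate 2 was the highest and mammary replicate 4 the lowest of the mammary arrays.

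UCSF034_000800 read 8.93, 7.70 and 5.89 in lung and 5.31, 8.96 and 5.15 in mammary cells, in the same order. UCSF034_000956 read 8.91, 7.13 and 4.23 in lung cells but only 5.66, 6.30 and 5.74 in mammary cells. No group difference could be resolved at this spread: the 95% interval of UCSF034_000748 ran from -5.84 to 3.54.

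Probes that separated adult mammary from adult lung cells were followed into the reprogrammed groups. Of the 947 probes 255 (26.9%) differed between adult mammary and adult lung cells at a limma adjusted p under 0.05, and 0 of these 255 were called between the reprogrammed groups, where 0.211% of all probes were, so that count is no result about them. In the 143 of them that were higher in adult mammary cells, the adult difference had a median of 1.36 and the reprogrammed one a median of 0.13 (quartiles -0.27 and 0.42). In the 112 that were lower there, the medians were -1.05 and -0.05. The size of the adult medians follows in part from picking probes by the adult test. The filter also let in probes through adult arrays alone. Of the 947 probes, 29 were detected on none of the 6 reprogrammed arrays. On all 6 of these arrays 18 lay at the floor, where the reprogrammed difference is fixed at 0. How many of these belong to the 255 was not counted. The reprogrammed values of the 255 lay near those of the 692 probes without an adult call. The reprogrammed difference had the adult sign in 146 of the 255 (57.3%, against 54.2% of the 692), and its 95% interval held 0 in 208 (81.6% against 80.3%). The groups did not overlap in 23.1% against 19.1%. The interval held the adult value in 42 of the 255. In 8 of the 255 (3.14%) the reprogrammed difference was over 1 in size, against 7.51% of the 692. Adult and reprogrammed comparisons share no arrays, but the fit gives them 1 common estimate of spread for each probe. Picking probes by the adult test therefore favours probes with a small common spread. Shares that depend on spread, such as differences over 1 in size, can follow in part from that picking.

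The difference between both comparisons was tested directly as the reprogrammed change minus the adult change. It passed an adjusted p of 0.05 in limma for 111 probes (11.7% of those tested), 46 with a positive and 65 with a negative value, and 254 had an unadjusted p under 0.05. The split was 65 positive and 49 negative with the percentile over all probes, and 59 and 51 in the authors' values. The adult difference was the larger in size in 101 of the 111, with a median size of 1.48 against 0.27 for the reprogrammed difference, and 100 of the 111 were among the 255 adult probes. Over all tested probes the median size was 0.44 for the adult and 0.30 for the reprogrammed difference. In 76 of the 111 the signs were opposite, and in 87 the interval of the reprogrammed difference held 0. That interval held 0 in 81.6% of the 255 adult probes and 80.3% of the 692 others, so the count of 87 is no result about the 111. Opposite signs and a larger adult difference partly follow from picking probes by the difference between both.

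At the negative end stood UCSF034_000380, described above, with an adult difference of 5.16, a reprogrammed difference of -1.35 and a difference between both of -6.52 ± 0.58 (limma adjusted p = 8.8e-05). UCSF034_000379 had 4.45 in adult and -1.21 in reprogrammed cells (-5.66 ± 0.43), and UCSF034_000381 had 3.87 and -1.17 (-5.03 ± 0.43). All 3 were low in adult lung alone, and their means in reprogrammed lung cells (10.13, 11.82 and 10.68 in order of serial number) were above those in reprogrammed mammary cells (8.93, 10.47 and 9.51).

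At the positive end UCSF034_000548 read 3.88, 3.93 and 4.09 in reprogrammed lung against 4.55, 4.12 and 4.90 in reprogrammed mammary cells. Its adult levels were 8.54, 8.97 and 8.82 for lung and 4.02, 4.36 and 3.86 for mammary. The adult difference was -4.69, the reprogrammed one 0.56 ± 0.21, and the difference between both 5.25 ± 0.30 (limma adjusted p = 4.66e-06). UCSF034_000556 and UCSF034_000547 had adult differences of -4.82 and -4.80 and reprogrammed ones of 0.03 ± 0.47 and -0.06 ± 0.44 (differences between both 4.85 ± 0.67 and 4.75 ± 0.62). These 3 probes were high in adult lung cells and low in the other 3 groups.

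In 10 of the 111 the reprogrammed difference was the larger in size, but 5 of the 10 were undetected on all arrays of at least 1 of the 4 groups, so that their differences rest on limits. UCSF034_000873 was one, at 1.32 in reprogrammed and -0.51 in adult cells (difference 1.82 ± 0.33, limma adjusted p = 0.00765). UCSF034_002505, detected on all 12 arrays but at or near the floor in adult lung, was another, at 1.14 in reprogrammed and 0.28 in adult cells (0.86 ± 0.18, adjusted p = 0.0159). UCSF034_002175 and UCSF034_001350 were among those resting on limits: neither was detected on any adult lung array, and the latter on no reprogrammed mammary array and 1 adult mammary array, so no size is given for their differences between both comparisons.

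**Figure D5:**
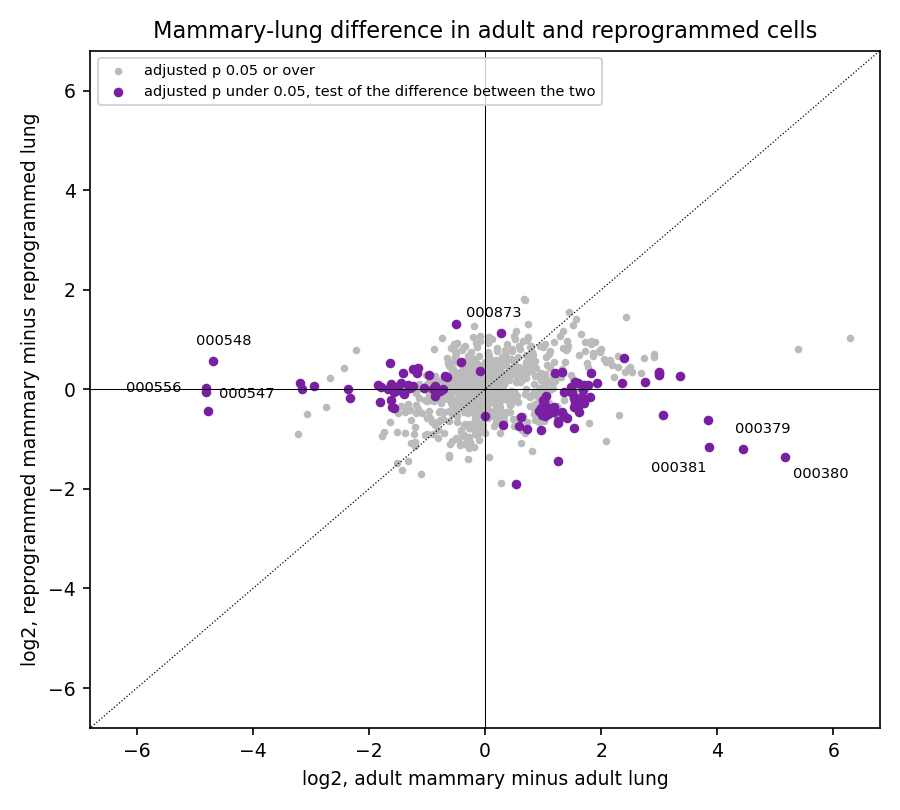
Log2 difference of reprogrammed mammary minus reprogrammed lung against adult mammary minus adult lung, for 947 probes on equal axes, with the line of equal differences dotted and the 111 probes whose 2 differences differ (limma adjusted p under 0.05) in purple. Purple points stretch along the horizontal axis, from -4.82 for UCSF034_000556 to 5.16 for UCSF034_000380. Their reprogrammed differences have a median size of 0.27, against 0.30 over all tested probes.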

How the data were processed

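MicroRNA was labelled and hybridised to single-colour Agilent arrays, per the labels' protocols. The deposited files hold spot intensity; the processed signal was made with Agilent Feature Extraction (version 10.5.1.1 per the file headers of 11 arrays, 10.1 per the submitters' processing notes). The file of reprogrammed lung replicate 3 has no headers and is rounded to 3 significant digits. The authors' deposited values are on the log2 scale and cover 2270 probes (column medians 4.97 to 5.00, highest value 16.88 on 11 arrays and 16.57 on adult lung replicate 1). Each column correlated best with its own array (r of 0.996 to 1.000 with log2 median spot signal), in the same direction; its scaling and centring are unknown here, and it served as an alternative. There were 0 columns of other samples.

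Of the spots, controls and those marked as outliers (164 to 345 on an array) were dropped; saturation was marked on 0. Signal was scaled to the 75th percentile, floored at 10.7 (3.42 on the log2 scale, from the 5th percentile of detected spots) and averaged on the log2 scale over a probe's spots. Of the tested probes 180 had at least 1 of the 6 arrays at the floor, and 18 all 6. A probe was detected where a share of over 0.5 of its spots was well above background. A bound sets the brighter group's mean against, on each array of the dim group, its own signal or the array's lowest detected one, whichever was higher. It does not allow for array spread. limma 3.58.1 in R 4.3.3 was fitted to 4 group means over 12 arrays (8 residual degrees of freedom), with Benjamini-Hochberg adjustment over 947 probes. The fit was run on simulated data with independent normal noise and no floor, slide effect or brightness difference, so that run does not cover these features of the arrays. data.table (1.17.8), statmod 1.5.0, Python 3.11.15, pandas 2.3.3 and matplotlib 3.10.9 were also used. The number of arrays limits the precision.

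The named probes are those called, the 8 highest and 8 lowest without overlap among probes detected on all 6 arrays, the 5 with the highest bound, the 5 brightest, the 3 highest and 3 lowest differences between the adult and reprogrammed comparisons, and the 3 most spread in each group. Members, lists and rules were chosen with earlier results of these data known. The neighbours of named probes, the printing classes and the level classes were described after values were seen. Alternatives were quantile normalization, the percentile taken over all probes, unscaled signal, normexp (offset 50, on the median signal in place of the mean signal, which the files used here do not hold), the authors' values, total gene signal, other filters and floors, outliers kept, the 6 arrays alone, slide and replicate blocks, array weights, an intensity trend and each array left out.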

Additional observations from a re-analysis of the deposited data

Results flagged for a closer look

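The mammary-lung difference differed between reprogrammed and adult cells in 111 probes, by a limma test of that difference itself with Benjamini-Hochberg adjustment. The 3 highest values, reprogrammed minus adult, were 5.25 for UCSF034_000548, 4.85 for UCSF034_000556 and 4.75 for UCSF034_000547. The 3 lowest were -6.52 for UCSF034_000380, -5.66 for UCSF034_000379 and -5.03 for UCSF034_000381. All 6 stayed past the threshold in each of 29 other settings.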

How the results depend on the processing

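Of 32 probes named for the reprogrammed comparison, 19 kept their direction in every other setting they were run in, 15 of them in 31 settings and 4 in 30. Most of these 19 were picked because their groups did not overlap, so leaving out 1 array could not reverse them. Settings that changed only the filter, the slide block or the adult arrays left the estimate of UCSF034_002505 at 1.14. The kept direction therefore largely follows from the picking and the design. The 2 calls between the reprogrammed groups became 0 with the percentile over all probes (173 at an unadjusted limma p under 0.05), the 6 arrays alone (138), slide as a fixed block (176) and both of these together (chosen after seeing the data). They became 1 with detection on all 6 or on 3 of 6 reprogrammed arrays, the floor at the 1st percentile or outlier spots kept, and 4 with the floor at the 20th percentile. They became 12 with no filter, 17 with an intensity trend, 23 with total gene signal and 114 with array weights (weight 0.21 for reprogrammed lung replicate 1). No scaling gave 347, of which 0 were higher, and normexp 468, of which 453 were higher, with the median of all probes moved to -0.69 and 0.48. The authors' values gave 2 calls, sharing 0 with those reported. Leaving out 1 array gave 0 to 16 calls. The 111 differences between the comparisons became 51 with no filter, 299 with array weights and 72 to 149 with 1 array left out, the 72 without adult lung replicate 2. The count of 62 probes detected in lung cells alone was 48, 52 or 63 with other detection rules.

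Replicate numbers 1 and 2 are shared by both reprogrammed groups, and deviations of same-numbered arrays correlated at 0.12 and -0.01. The labels do not say whether equal numbers mark paired material. These 2 correlations cannot decide it, since they rest on few arrays and same-numbered arrays also share a slide. With the replicate block there were 2 calls, both higher and 1 of them shared, and 78 for the difference between the comparisons.

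Reversals were found in 13 probes, and the cause was not tested. Quantile normalization gave -0.047 for UCSF034_002465 and -0.29 for UCSF034_000750. No scaling gave -0.17 for UCSF034_000018, -0.30 for UCSF034_002465, -0.20 for UCSF034_001736 and -0.58 for UCSF034_000750. Normexp gave 0.58 for UCSF034_001350, 0.25 for UCSF034_000343, 0.52 for UCSF034_000382, 0.51 for UCSF034_000234, 0.41 for UCSF034_001153 and 0.48 for UCSF034_002553. UCSF034_000750 was at -0.25 in the authors' values, -0.035 with array weights. With 1 array left out it ranged from -0.0042 to 0.42, UCSF034_000748 from -3.26 to 0.41, UCSF034_000956 from -2.12 to 0.22 and UCSF034_000761 from -2.09 to 0.14, each with its highest value without reprogrammed lung replicate 1 except UCSF034_000750, lowest there. UCSF034_000748 was also positive, at 0.16, without reprogrammed mammary replicate 4. Signal near background limits the probes detected in lung cells alone, which lay at most at 4.83 with the floor at 3.42.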
